A study of Mus musculus with 2 samples.

Results

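Classical monocytes were picked out among immune cells sorted from mouse tumours by their messenger RNA: 442 of 25200 cell barcodes met the rule, 13 of 13962 in the PBM library and 429 of 11238 in the control library. A barcode tags the RNA of a single droplet, and a unique molecular identifier (UMI) tags a single captured RNA molecule. The rule asked for at least 2 UMIs of Ly6c2, at least 1 of Ccr2 and at least 5 of Lyz2. It allowed C1qa, C1qb and C1qc together under 0.1% of the barcode's UMIs, at most 1 UMI of Ace, Adgre4 and Treml4, at most 1 of Cd3d, Cd3e and Cd3g, and none of Siglech, Flt3 or Ncr1. These limits leave out C1q-rich macrophages, nonclassical monocytes, T cells, dendritic cells and natural killer (NK) cells. Levels of the rule's own genes are therefore a description and not a finding.

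Classical monocytes leave the bone marrow through the chemokine receptor CCR2 and enter inflamed tissue and tumours from the blood. In mice they carry the surface protein Ly6C, and they are short-lived: in tissue they differentiate into macrophages or monocyte-derived antigen-presenting cells. In tumours they are known as a source of suppressive, arginase-expressing myeloid cells and as early responders to interferon.

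MC38 cells, which derive from a colon carcinoma of the mouse, were grown under the skin of C57BL/6 mice; the genotype label is WT. From these tumours CD45+ cells were sorted for single-cell RNA sequencing. PBM stands for photobiomodulation, which the series title calls pulsed; PBM tumours were treated daily from day 7 and collected on day 14. Control tumours, also collected on day 14, have no treatment of their own named in the labels. Cells were pooled within a condition, and the labels state neither the number nor the age of the mice.

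With 1 library per group there was no replicate and no test, and an effect of treatment cannot be told apart from one of the pooled mice or of the library. All intervals are 95% intervals that cover counting error only. The 13 PBM members held 49793 UMIs in all, with 1456 to 10903 per barcode and a median of 3426. The 429 control members held 4142969 UMIs, with 1274 to 67838 per barcode and a median of 6549. Levels are summed UMIs per 1000000 UMIs of the members (CPM), so that 1 UMI is worth 20.1 CPM in PBM members and 0.241 CPM in control members. In PBM members a gene with no UMI was set to 3 UMIs (60.2 CPM) for ratios, which are then given as at most. The upper end of the 95% interval of such a gene is 74.1 CPM, so its ratio can be somewhat higher than the value given. The single largest barcode holds 21.9% of all PBM member UMIs. The name of a barcode was found in both libraries 1991 times, but the names are cell numbers and not sequences, and no member's name was shared. Gm42418, which overlaps ribosomal RNA sequence, took 130500 CPM in PBM members and 87723 CPM in control members.

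The labels call the cell type tumour cells, although the protocol sorts CD45+ immune cells, and most members carried genes of myeloid cells. Not every member is shown to be an immune cell, since 63 of 429 control members held 5 or more UMIs of tumour-bed markers (below). With every barcode thinned to 1000 UMIs, Tyrobp, an adaptor of myeloid receptors, had a UMI in all 13 PBM members and in 93.9% of control members. Ifitm3 had one in 92.3% of PBM and 85.8% of control members. Among markers that the rule did not use, Plac8 was detected in 92.3% of PBM and 59.2% of control members (in all 13 PBM members and in 90.2% of control members before thinning). Chil3, which encodes a chitinase-like protein of monocytes, was detected in 30.8% of PBM and 27.5% of control members (30.8% and 58.7% before thinning). Vcan, which encodes the matrix proteoglycan versican, was detected in none of the 13 PBM members and in 6.99% of control members, a difference not detectable with 13 barcodes. Detection in lymphocyte barcodes of the same libraries, from free RNA or from the lymphocytes themselves, gives a comparison level, and which of these it was is not known. T cell barcodes had median depths of 4667 UMIs (PBM) and 3697 UMIs (control), and B cell barcodes 4191.5 and 2620.5 UMIs. Plac8 was found in 14.9% of PBM and 20.3% of control T cell barcodes, and in 31.4% of PBM and 30.4% of control B cell barcodes. Chil3 was found in 0.0796% of PBM and 2.29% of control T cell barcodes. B cell and NK cell genes stood in the members at a median of 13.9% (PBM) and 28.1% (control) of their library-wide level, which was used as the estimate of free RNA.

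Classical monocytes made up 0.0931% of the PBM library (0.0496 to 0.159) and 3.82% of the control library (3.47 to 4.19), a difference of -3.72 percentage points. The log2 ratio of the shares was -5.36 (-6.28 to -4.57), 41.0-fold lower in the PBM library. Barcodes with at least 5 Lyz2 UMIs and at most 1 Cd3 UMI, which take in monocytes, macrophages and other myeloid cells, were 0.859% of the PBM library and 46.4% of the control library. Among those barcodes, classical monocytes were 13 of 120 in the PBM library (10.8%, 5.90 to 17.8) and 429 of 5211 in the control library (8.23%, 7.50 to 9.01). The log2 ratio of these shares was 0.40, and its interval reached from -0.53 to 1.19. The low share of classical monocytes in the PBM library thus went with a low share of all Lyz2 barcodes. Fewer monocytes in the tumour and more of the other sorted cells in the pool cannot be told apart. B cell barcodes held at least 3 UMIs of Cd79a, Cd79b and Ms4a1, at most 1 Cd3 UMI and under 5 Lyz2 UMIs. They numbered 4038 in the PBM library and 184 in the control library. Of them, 5.62% in the PBM library and 77.7% in the control library held a Lyz2 UMI, so the Lyz2 limit may leave out more control barcodes.

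**Figure D1:**
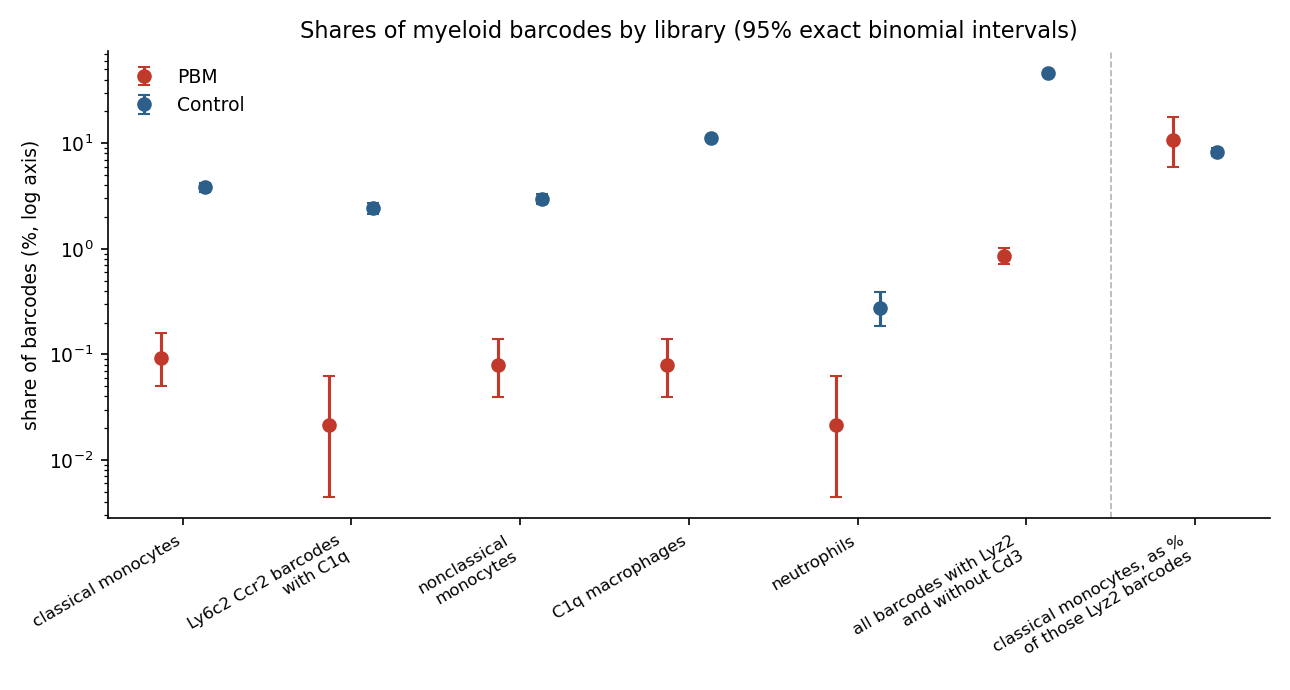
Shares of barcodes in the PBM and control libraries on a log axis, for classical monocytes, 4 neighbouring myeloid sets and all Lyz2 barcodes, and, right of the dashed line, classical monocytes as a share of Lyz2 barcodes; points are shares and bars exact binomial intervals. The PBM points lie below the control points in all sets counted over whole libraries, while the right-hand pair stands at 10.8% and 8.23% with overlapping intervals.

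The conditions of the rule weighed differently in the libraries. At least 2 Ly6c2 UMIs were found in 3709 PBM and 3029 control barcodes, since lymphocytes can also carry Ly6c2. Adding Ccr2 left 290 PBM and 1717 control barcodes, and adding Lyz2 left 45 and 1405. The limit on Cd3 alone left out 22 PBM and 253 control barcodes, the limit on C1q alone 3 and 271, and the limit on Ncr1 alone 0 and 85. Just inside the Ly6c2 limit, at 2 UMIs, stood 3 PBM and 97 control barcodes; just outside it, at 1 UMI, stood 5 and 246. The control barcodes at 2 UMIs had 416 CPM of Plac8 and those at 1 UMI had 422 CPM. With 1 Ccr2 UMI there were 8 PBM and 127 control barcodes, and with 0 there were 15 and 221. At 5 Lyz2 UMIs stood 0 PBM and 6 control barcodes, and at 4 stood 1 and 9. With C1q between 0.05% and 0.1% of UMIs there were 77 control barcodes, and between 0.1% and 0.15% there were 26, with no PBM barcode in either range.

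Set against all other control barcodes, the control members were led by Hp, which encodes the haemoglobin-binding protein haptoglobin, at 211 CPM in members and 33.0 CPM in the rest. Since the members were chosen from these same barcodes, such folds are a description. Ifitm6, a member of the interferon-induced transmembrane family, followed at 97.3 and 22.2 CPM (4.39-fold), and Plac8 at 1422 and 379 CPM (3.76-fold). The 20 leading genes further held Chil3 (3.17-fold), Il1b, which encodes the inflammatory cytokine interleukin 1 beta (3.09-fold), and Ms4a4c (3.33-fold). They also held interferon-response genes: Cxcl10, a chemokine that attracts activated T cells (3.36-fold), the ubiquitin-like modifier Isg15 (3.06-fold), Slfn1 (3.01-fold), Slfn5 (2.91-fold), Ifi204 (2.78-fold) and the nucleic acid sensor Zbp1 (2.56-fold). Fpr2, a receptor for formylated bacterial peptides (131 and 50.5 CPM), and Clec4e, a C-type lectin receptor (146 and 56.3 CPM), also belonged to the 20. Over whole lists, where 42.7% of the 9353 measured genes were higher in control members than in the rest, 32 of 33 measured type I interferon genes and 28 of 29 monocyte identity genes were, while 5 of 26 macrophage maturation genes were.

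Neighbouring myeloid sets of the control library show where the members stand in genes that the rule did not use. Apoe, a lipid carrier made by macrophages, stood at 1011 CPM in classical monocytes, 3855 CPM in the 271 barcodes that met every condition but carried more C1q, and 8168 CPM in 1254 C1q macrophages. Mrc1, the mannose receptor gene, followed the same order at 66.1, 237 and 548 CPM. Arg1, which encodes arginase 1, an enzyme that uses up arginine, stood at 4438, 7737 and 9782 CPM, and Spp1, the gene of the secreted protein osteopontin, at 1282, 1940 and 2571 CPM. Plac8 ran the other way at 1422, 462 and 136 CPM, and Hp at 211, 38.6 and 15.7 CPM. MHC class II genes, which present antigen to CD4 T cells, did not follow that order: H2-Ab1 was 3582 CPM in classical monocytes, 5606 CPM in those with C1q and 2869 CPM in macrophages.

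Nonclassical monocytes, 336 control barcodes chosen by Ace, Adgre4 and Treml4, differed from the classical ones in genes that neither rule used. Plac8 was 1422 CPM in classical and 3318 CPM in nonclassical monocytes, Hp 211 and 500 CPM, and Lst1 444 and 1753 CPM. Nr4a1, the transcription factor gene on which nonclassical monocytes depend, was 45.4 and 581 CPM. Arg1 was 4438 and 847 CPM, Ldha 1114 and 396 CPM, and summed glycolysis genes 11646 and 4664 CPM. The 31 control neutrophil barcodes were chosen by S100a8 and S100a9 together at 1% of UMIs or more. They also needed at least 2 UMIs of Csf3r, Cxcr2 and Retnlg. Their 40053 CPM of S100a8, against 93.9 CPM in classical monocytes, is therefore a description and not a finding. Il1b, which that rule did not use, stood at 6857 CPM in neutrophils, against 1098 CPM in classical monocytes.

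**Figure D2:**
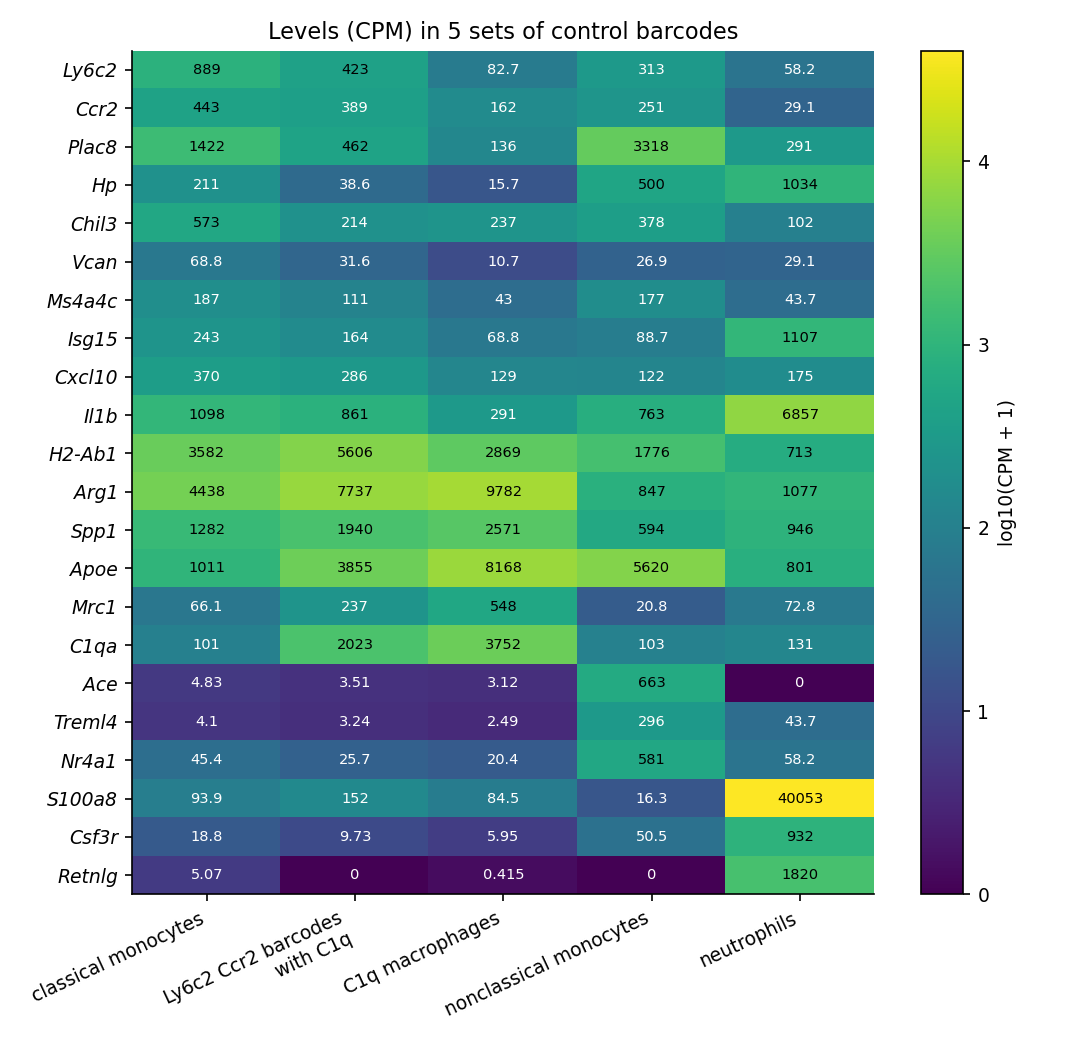
Levels in CPM of 22 genes (rows) in 5 sets of control barcodes (columns); colour is log10(CPM + 1) and each cell prints the CPM. Apoe, Mrc1, Arg1 and Spp1 rise from classical monocytes through the C1q-bearing barcodes to macrophages, and Nr4a1, Ace and Treml4 stand out in nonclassical monocytes, S100a8 and Retnlg in neutrophils. Ace, Treml4, S100a8 and Retnlg were used to choose those sets.

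Control members varied widely among themselves. They were read in 3 groups of 143 barcodes by the Ly6c2 share of their UMIs, with limits at 491 and 1545 CPM; 18 and 24 members lay within 10% of those limits, so the groups are ranges and not types. From the low to the high Ly6c2 group Plac8 stood at 291, 2574 and 3591 CPM, Hp at 28.6, 176 and 803 CPM, and Ifitm6 at 21.2, 134 and 287 CPM. Summed type I interferon genes stood at 1189, 2620 and 3440 CPM and Il1b at 865, 1315 and 1569 CPM. Arg1 ran the other way, at 5359, 3947 and 2186 CPM, and so did Spp1, at 1735, 650 and 598 CPM, and Mt1, a metallothionein gene, at 1353, 261 and 233 CPM. Summed MHC class II genes were highest in the middle group (11027, 16964 and 11644 CPM). In the low group Ly6c2 (164 CPM), Plac8 and Hp were below their levels in all other control barcodes (251, 379 and 33.0 CPM). The barcodes of the low group thus met the rule by their UMI counts without being rich in these 3 markers.

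Depth and genes of another cell type moved with these groups. The median was 12810 UMIs per barcode in the low Ly6c2 group, 5430 in the middle and 4920 in the high. The low group therefore weighs most in the summed control levels, while the high group held 807373 of the 4142969 control member UMIs. Sparc, a matrix gene of fibroblasts that a CD45 sort should leave out, stood at 703, 26.0 and 24.8 CPM. The list of 8 fibroblast and epithelial markers of the tumour bed gave at least 1 UMI in 225 of 429 control members and at least 5 UMIs in 63 (14.7%), which held 39.8% of all control member UMIs. No PBM member had a UMI of these 8 genes, so that the interval of their sum reached up to 74.1 CPM in PBM members, against 795 CPM in control members. Without those 63 control members the log2 ratios reported below were -7.73 for Arg1, -1.61 for summed glycolysis genes, 0.54 for summed type I interferon genes, 0.67 for Plac8, 1.00 for Hp and 2.73 for Nr4a1. A doublet caller (Scrublet) marked none of the 13 PBM members and 3 of the 429 control members; it marked 6.30% of PBM and 0.970% of control barcodes in all.

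The 13 PBM members were not uniform either. Plac8 ranged from 415 to 6933 CPM per barcode with a median of 2657 CPM in PBM members, against 0 to 14776 CPM with a median of 1368 CPM in control members. Hp had UMIs in 8 of 13 PBM members and Chil3 in 4 of 13. MHC class II genes separated the PBM members: 5 had from 56 to 239 UMIs of these genes and the other 8 had from 1 to 24. All 5 with many MHC class II UMIs had no Chil3 UMI, and 4 of them had no Hp UMI. In control members the summed level of H2-Aa, H2-Ab1, H2-Eb1 and Cd74, counted here as MHC class II, ranged from 0 to 69205 CPM, with a median of 3515 CPM, against 673 to 63496 CPM and 3738 CPM in PBM members. Cxcl10 had UMIs in 2 PBM members, with 11 and 15, and all 21 UMIs of the chemokine gene Ccl24 were in 1 PBM member. Levels of such genes summed over 13 barcodes thus rest on 1 or 2 of them.

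**Figure D3:**
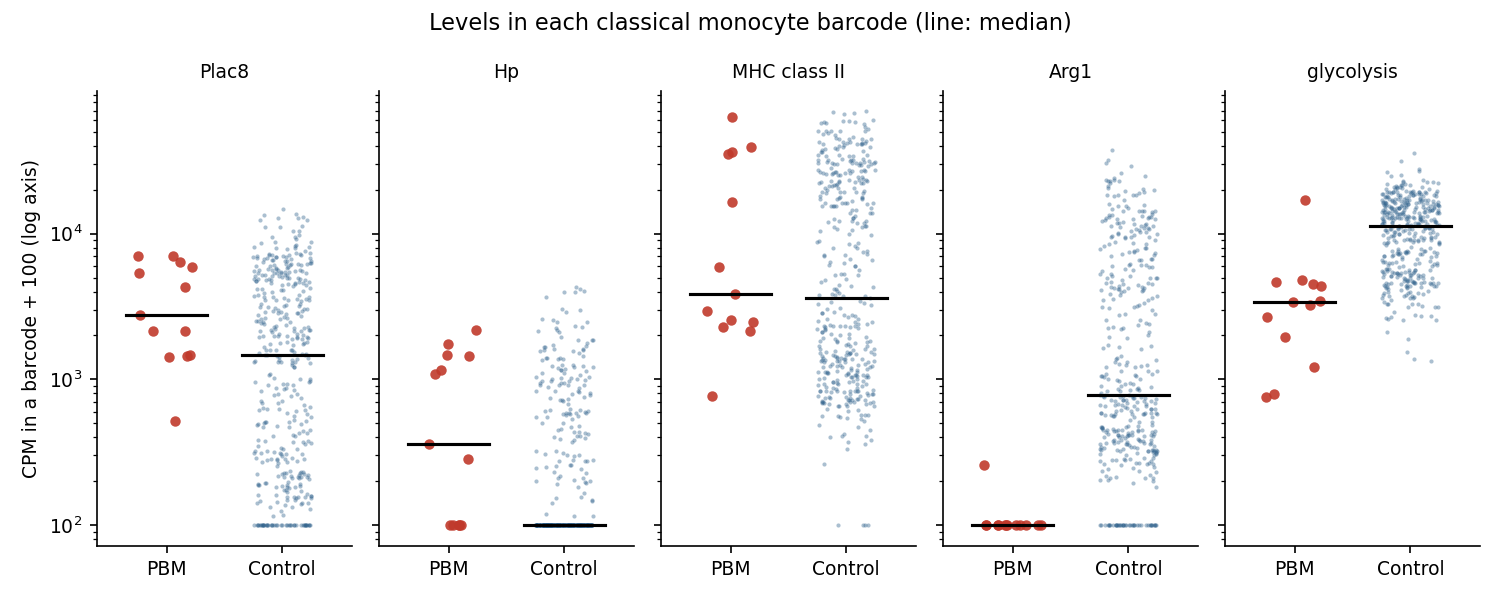
Level in each barcode, as CPM + 100 on a log axis, of Plac8, Hp, 4 MHC class II genes, Arg1 and the summed glycolysis genes in the 13 PBM members and the 429 control members; each point is a barcode and the line is the median. All PBM points but 1 lie at the floor for Arg1, and 12 of the 13 lie below the control median for glycolysis.

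The comparison of PBM with control members asks how the monocytes of treated tumours differed from those of control tumours. Of 9353 genes with at least 20 UMIs over both libraries, 1329 were at least 2-fold higher in PBM members (14.2%) and 652 at least 2-fold lower (6.97%), and the median log2 ratio of the 5449 that could be placed was 0.23. The other 3904 had no UMI in PBM members and a control level too low to give a direction. Because a few UMIs can make a 2-fold difference here, a further reading was added after the data were seen: of 602 genes with a mean level of at least 200 CPM, 42 were 2-fold higher (6.98%) and 75 were 2-fold lower (12.5%), with a median log2 ratio of 0.00.

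**Figure D4:**
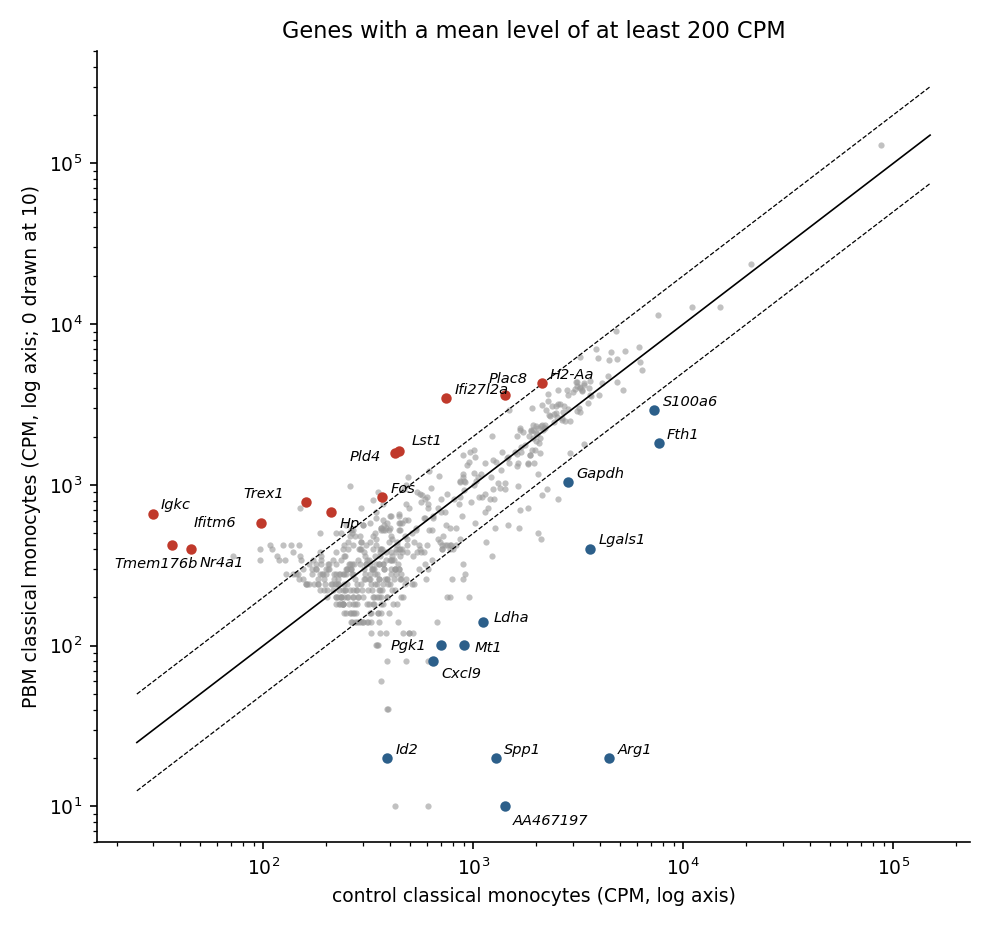
Levels in PBM members (vertical) and control members (horizontal) of the 602 genes with a mean level of at least 200 CPM, both on log axes; the solid line marks equal levels, the dashed lines 2-fold differences, red points named genes higher in PBM and blue points named genes lower in PBM. Arg1, Spp1 and AA467197 lie farthest below the line, and Ifi27l2a, Plac8, Lst1 and Pld4 are the most abundant of the named genes far above it.

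Arginase was nearly missing from PBM monocytes. Arg1 had 1 UMI in the 13 PBM members and 18388 UMIs in the control members, 20.1 CPM (0.508 to 112) and 4438 CPM (4374 to 4503), a log2 ratio of -7.79 (-13.09 to -5.31). It had a UMI in 1 of 13 PBM members (7.69%) and in 389 of 429 control members (90.7%). Free RNA could supply 30.9% of the control level. Before thinning, 1.99% of PBM and 71.2% of control T cell barcodes also held an Arg1 UMI. After thinning, Arg1 was found in none of the 13 PBM members and in 60.1% of control members. The T cell barcodes then had 0.478% (PBM) and 29.5% (control). Per barcode, control members had a median of 681 CPM and a lower quartile of 268 CPM. The summed level of control T cell barcodes was 359 CPM, so detection alone overstates the gap. Spp1 also had 1 UMI in PBM members and stood at 20.1 CPM (0.508 to 112), against 1282 CPM (1247 to 1317) in control members, a log2 ratio of -6.00 (-11.30 to -3.52). AA467197 had none in PBM members and 1412 CPM in control members, a log2 ratio of at most -4.55. Against the high Ly6c2 group of the control members alone, the log2 ratio was -6.77 for Arg1 and -4.90 for Spp1. Against control members within the UMI range of the PBM members it was -7.79 for Arg1 and -5.81 for Spp1. In all readings against the high Ly6c2 group, the 13 PBM members were kept whole. Their Ly6c2 ran from 275 to 4516 CPM per barcode with a median of 1374 CPM, while that group began at 1545 CPM.

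Arg1 and Spp1 were also low in the other PBM myeloid sets. Arg1 stood at 43.7 CPM in 11 PBM C1q macrophages, against 9782 CPM in the control ones, and had no UMI in 11 PBM nonclassical monocytes, against 847 CPM in the control ones. Spp1 had no UMI in PBM C1q macrophages, against 2571 CPM, and 21.2 CPM in PBM nonclassical monocytes, against 594 CPM. The low levels were thus not confined to the classical monocytes; whether the sets differed in size of effect was not tested.

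The remaining genes named for the lowest ratios had 1 UMI each in PBM members and ratios from -4.28 to -3.46. They were Id2, an inhibitor of helix-loop-helix transcription factors (20.1 CPM in PBM and 391 CPM in control members), Clec4d, a C-type lectin receptor gene (20.1 and 351 CPM), the lysosomal protease gene Ctsl (20.1 and 306 CPM), the actin-severing protein gene Gsn (20.1 and 276 CPM), the tetraspanin gene Cd63, the translation repressor gene Eif4ebp1, the tubulin gene Tuba1c, Jpt1 and Pebp1. The interval of Id2 reached from -9.59 to -1.80 and that of Pebp1 from -8.76 to -0.98.

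Genes of glycolysis, the breakdown of glucose to pyruvate and lactate, were lower in PBM monocytes as a group. Their summed level was 3715 CPM (3199 to 4291) in PBM members and 11646 CPM (11543 to 11751) in control members, a log2 ratio of -1.65 (-1.86 to -1.44). Of 18 measured genes 11 were at least 2-fold lower and none 2-fold higher, where 6.97% and 14.2% of all genes were; the list median was -1.43, beside 0.23 for all genes. Of the 10 with a mean of at least 200 CPM, 8 were at least 2-fold lower, where 12.5% of all 602 such genes were. Ldha, which turns pyruvate into lactate, stood at 141 CPM in PBM and 1114 CPM in control members (log2 -2.99, -4.30 to -1.94). Pgk1 stood at 100 CPM in PBM and 702 CPM in control members (-2.81, -4.43 to -1.58), and the enolase gene Eno1 at 201 and 952 CPM (-2.25). Tpi1 stood at 141 and 674 CPM, Pgam1 at 201 and 747 CPM, Aldoa at 542 and 1659 CPM, and Gapdh at 1044 and 2822 CPM (-1.43, -1.86 to -1.04). The glucose transporter gene Slc2a1 had 20.1 CPM in PBM and 145 CPM in control members, on 1 PBM UMI. Hk1 (80.3 and 90.3 CPM) and Pfkl (80.3 and 106 CPM) differed by less than 2-fold.

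Per barcode, the glycolysis genes had 661 to 16896 CPM in PBM members, with a median of 3273 CPM, and 1244 to 35560 CPM in control members, with a median of 11099 CPM. Only 1 PBM barcode, with 65 of the 185 glycolysis UMIs, lay above the control median. The summed log2 ratio was -1.37 against the high Ly6c2 group and -1.59 against control members within the PBM UMI range. Summed glycolysis genes were also lower in PBM C1q macrophages (2208 CPM, against 12337 CPM in control ones) and in PBM nonclassical monocytes (2314 and 4664 CPM). By these 2 myeloid sets, the lower level in the PBM library was not confined to the classical monocytes. The 13949 other PBM barcodes had 2314 CPM, and all other control barcodes had 10489 CPM. Those remainders differ in cell types, since Lyz2 barcodes were 0.859% of the PBM library and 46.4% of the control library. The part of cell types in that gap was not tested.

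Genes induced by low oxygen differed in the same direction. The hypoxia list summed to 663 CPM in PBM and 2274 CPM in control members (log2 -1.78, -2.32 to -1.29), with 9 of 14 genes 2-fold lower and none higher, beside 6.97% and 14.2% of all genes; 4 of the 14 had no PBM UMI. Mif, a macrophage cytokine gene, stood at 261 CPM in PBM and 894 CPM in control members, and Bnip3, a mitophagy receptor gene, had no UMI in PBM members and 158 CPM in control members (log2 at most -1.39). Vegfa, the gene of the vessel growth factor, had 20.1 CPM in PBM members, on 1 UMI, and 70.0 CPM in control members. Slc2a1 belongs to both lists.

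The promoters of Pgk1 and Ldha are shown because they carry the core of the element that hypoxia-inducible factors bind, written here as ACGTG. RefSeq sequence (GRCm38.p6) of 250 bases before the start was searched on both strands, and overlapping matches were counted. The motif was present in 10 of 18 glycolysis promoters and in 4998 of 27025 promoters in all (18.5%). The windows are chrX:106186930-106187029 for Pgk1, on the plus strand and 170 to 71 bases before the start, and chr7:46845704-46845803 for Ldha, on the plus strand and 100 to 1 bases before the start. Capitals mark matches on either strand, 5′ to 3′ along the gene.
Pgk1: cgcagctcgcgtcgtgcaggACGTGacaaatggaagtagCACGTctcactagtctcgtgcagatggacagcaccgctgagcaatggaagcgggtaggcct
Ldha: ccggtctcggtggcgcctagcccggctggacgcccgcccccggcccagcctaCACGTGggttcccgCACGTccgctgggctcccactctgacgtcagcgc
The matches are letters in a window and were not tested as sites; the files hold no measure of binding.

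Genes of metal and redox handling were lower as well. The metallothionein and NRF2 list summed to 5864 CPM in PBM and 15516 CPM in control members (log2 -1.40, -1.57 to -1.24), with 6 of 16 genes 2-fold lower (6.97% of all genes) and 1 higher (14.2%). Fth1, the heavy chain of the iron store ferritin, stood at 1828 CPM in PBM and 7641 CPM in control members (-2.06, -2.38 to -1.77). Ftl1, the light chain, stood at 1828 and 2065 CPM (-0.18), so the chains of ferritin differed unequally. Mt1 stood at 100 CPM in PBM and 901 CPM in control members (-3.17), and -1.21 against the high Ly6c2 group. Mt2 had no UMI in PBM members and 335 CPM in control members, and Txn1, the gene of thioredoxin, stood at 201 and 776 CPM.

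S100 and related small genes were uneven. Lgals1, the gene of galectin 1 and named after its value was seen, stood at 402 CPM in PBM and 3608 CPM in control members (-3.17, -3.88 to -2.54). S100a6 stood at 2912 and 7273 CPM (-1.32), S100a11 at 462 and 2096 CPM (-2.18) and S100a10 at 723 and 1832 CPM (-1.34), while S100a4 stood at 2551 and 2654 CPM (-0.06). Within the interferon-induced transmembrane family, Ifitm1 had no UMI in PBM members and 611 CPM in control members (log2 at most -3.34), Ifitm2 stood at 964 and 1347 CPM, Ifitm3 at 3896 and 2529 CPM (0.62) and Ifitm6 at 582 and 97.3 CPM (2.58). Near-identical copies are uncertain in such families, since the rule for reads that match several genes is not given in the sources used here.

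The summed level of chemokine genes was lower in PBM members, at 3033 CPM, against 5221 CPM in control members (log2 -0.78, -1.02 to -0.55). Of 19 measured genes 7 were 2-fold lower (6.97% of all genes) and 1 higher (14.2%), and 10 had no PBM UMI. The size of this difference depended on free RNA, and so did the sign of the list median. After subtraction of free RNA the sum was -0.21, still lower in PBM members. The list median, -1.14 as measured over 13 genes, was then 0.45 over 11 genes. Ccl2, the ligand of CCR2 itself, stood at 120 CPM in PBM and 518 CPM in control members (-2.10, -3.55 to -0.98). Ccl7, another ligand of that receptor, had no UMI in PBM members and 293 CPM in control members (log2 at most -2.28), and the neutrophil attractant Cxcl2 none and 244 CPM (at most -2.02). Cxcl9, induced by interferon gamma, stood at 80.3 CPM in PBM and 646 CPM in control members (-3.01, -4.88 to -1.65), its 4 PBM UMIs in 1 member, while Cxcl10, a ligand of the same receptor, stood at 522 and 370 CPM. Ccl6 stood at 1125 and 1212 CPM and Ccl9 at 522 and 533 CPM. Ccl24 was the gene that was higher, at 422 and 108 CPM, from the single PBM barcode given above.

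Inflammatory cytokine genes had smaller differences. The interleukin 1 and inflammatory list summed to 1988 CPM in PBM and 2824 CPM in control members (-0.51, -0.81 to -0.22), with Il1b at 843 and 1098 CPM (-0.38, -0.86 to 0.06). Nfkbia, the NF-kB inhibitor gene, stood at 120 and 360 CPM, and Casp1, the gene of the protease that matures interleukin 1 beta, at 201 and 42.0 CPM (2.26). The suppressive and oxidative burst list summed to 7350 and 12756 CPM (-0.80), a sum in which Arg1 is 4438 CPM of the control level. The list median was -0.11, and 3 of 20 genes were 2-fold lower (6.97% of all genes) and 3 higher (14.2%). Lgals3, the gene of galectin 3, stood at 1787 and 3371 CPM (-0.92), and Cyba, a subunit of the phagocyte oxidase, at 1607 and 1696 CPM (-0.08). Cybb, the gene of the catalytic subunit, stood at 502 and 265 CPM (0.92), and Wfdc17 at 984 and 259 CPM (1.93), though at 0.94 against the high Ly6c2 group and 0.80 after thinning.

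Several genes of the monocyte identity list were higher in PBM members. Plac8 stood at 3615 CPM (3106 to 4183) in PBM and 1422 CPM (1386 to 1459) in control members, a log2 ratio of 1.35 (1.12 to 1.56). Hp stood at 683 CPM (473 to 954) and 211 CPM (197 to 225), a log2 ratio of 1.69 (1.16 to 2.19), and Lst1, a leukocyte-specific transcript, at 1627 and 444 CPM (1.87, 1.53 to 2.19). Ms4a6c stood at 1125 and 487 CPM (1.21), and F13a1, the gene of a coagulation factor chain, at 361 and 116 CPM (1.64). Other identity genes were lower: Fn1, the fibronectin gene, at 442 and 1147 CPM (-1.38), Tgfbi at 542 and 1270 CPM (-1.23) and Itgam at 161 and 362 CPM (-1.17). In all, 10 of 29 monocyte identity genes were 2-fold higher (14.2% of all genes) and 7 were 2-fold lower (6.97%).

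These higher levels depended on which control members they were set against. Against the high Ly6c2 group of the control members the log2 ratio of Plac8 was 0.01, that of Hp -0.23, that of Lst1 0.88 and that of Ifitm6 1.02. Against control members within the PBM UMI range they were 0.35, 0.80, 1.11 and 1.63. Without the PBM member with the most UMIs, Hp had 0.96 and Ifitm6 had 1.40. The depth of the barcodes and the tumour-bed genes moved with the Ly6c2 groups, and their part in these differences was not tested. Free RNA could supply 8.31% of the control level of Plac8 and 1.47% of the PBM level.

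Nr4a1, Tmem176b and Trex1, named after their values were seen, stayed at least 2-fold above the control level in each of these readings. Nr4a1 stood at 402 CPM in PBM and 45.4 CPM in control members (3.15, 2.40 to 3.81), and had a UMI in 61.5% of PBM and 24.9% of control members. Its ratio was 1.91 against the high Ly6c2 group. Without the PBM member with the most UMIs it was 2.18, so the 402 CPM rested in part on that barcode. Tmem176b, a cation channel family gene, stood at 422 and 36.9 CPM (3.51, 2.78 to 4.18), and 2.41 against that group. Trex1, a DNA exonuclease that limits sensing of cytosolic DNA, stood at 783 and 159 CPM (2.30, 1.79 to 2.77), and 1.34. Pld4, the gene of a lysosomal exonuclease, stood at 1587 and 426 CPM (1.90), and 0.91. Nr4a1 was 743 CPM in PBM and 581 CPM in control nonclassical monocytes.

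The 12 genes named for the highest ratios were all rare: each had 3 to 8 UMIs in PBM members and a log2 ratio between 3.63 and 4.57. They were Ralgps2 (120 CPM in PBM and 5.07 CPM in control members), Ccdc102a, Ffar2, a receptor for short-chain fatty acids (80.3 and 4.34 CPM), Tcp11l2, Nr1h3, a nuclear receptor for oxysterols (60.2 and 4.10 CPM), Zfp943, Gtdc1, 4930469K13Rik, 4930455G09Rik, D6Wsu163e, Dhx35 and Rab44. The lower bound of D6Wsu163e was 1.25.

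Type I interferon genes, the antiviral programme that monocytes start on sensing nucleic acids or interferon itself, were higher in PBM members as summed. Their sum was 3635 CPM (3125 to 4205) in PBM and 1934 CPM (1892 to 1977) in control members, a log2 ratio of 0.91 (0.69 to 1.12). Of 33 measured genes 13 were 2-fold higher and none 2-fold lower; 14.2% of all genes were higher, and 7 of the 33 had no UMI in PBM members. Ifi27l2a, an interferon-induced gene that stands on the identity list, was 3474 CPM in PBM and 746 CPM in control members (2.22, 1.99 to 2.44); its ratio was 0.94 against the high Ly6c2 group and 1.35 within the PBM UMI range. Slfn5 stood at 402 and 96.1 CPM (2.06), Parp14 at 301 and 81.8 CPM (1.88), Irf7, the transcription factor that amplifies the response, at 201 and 76.5 CPM (1.39) and Oas3 at 100 and 27.5 CPM (1.87). Isg15 stood at 422 and 243 CPM (0.80), and Ifit1 at 40.2 and 37.2 CPM on 2 PBM UMIs.

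The interferon difference depended on the reading. Against the high Ly6c2 group the summed log2 ratio was 0.08, within the PBM UMI range 0.38, and after thinning 0.09, and Slfn5 had -0.04 after thinning. Isg15 had UMIs in 5 of 13 PBM members, with 9 of the 21 in a single one. Genes induced by interferon gamma showed no such difference: they summed to 3173 CPM in PBM and 3249 CPM in control members (-0.03, -0.27 to 0.19), with Gbp2 at 482 and 273 CPM, Irf1 at 341 and 119 CPM (1.53) and Cxcl9 in the other direction.

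Promoters of 3 type I interferon genes are shown because an element stood in 13 of the 25 searched promoters of the list. The interferon-stimulated response element was searched in the same way, as GAAA, any 2 bases and GAAA. The other 12 searched promoters held no match, 8 measured genes had no entry, and 936 of 27025 promoters in all held one (3.46%). The windows are chr4:156200819-156200918 for Isg15 (minus strand, 100 to 1 bases before the start), chr11:82951902-82952001 for Slfn5 (plus strand, a window that opens 200 bases before the start) and chr5:120777660-120777759 for Oas3 (minus strand, 100 to 1 bases). Capitals mark the matches, which overlap in Isg15, where 3 matches form a single run.
Isg15: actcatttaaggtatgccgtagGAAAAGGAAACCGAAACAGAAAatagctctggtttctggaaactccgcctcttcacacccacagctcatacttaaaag
Slfn5: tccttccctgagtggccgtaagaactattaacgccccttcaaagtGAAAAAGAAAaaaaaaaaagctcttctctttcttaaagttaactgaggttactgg
Oas3: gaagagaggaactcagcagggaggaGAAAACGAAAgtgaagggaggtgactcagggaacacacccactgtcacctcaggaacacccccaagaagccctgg
As above, a match is a description of the letters in these windows.

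Antigen presentation genes differed by less than 2-fold as summed. MHC class II genes summed to 17774 CPM in PBM and 12417 CPM in control members (0.52, 0.42 to 0.61), with 3 of 9 genes 2-fold higher, beside 14.2% of all genes. The summed ratio was 0.12 without control members holding 5 or more tumour-bed UMIs and 0.24 after thinning. It was 0.83 without the PBM member with the most UMIs. As given above, a few PBM members held most UMIs of MHC class II genes. H2-Aa stood at 4318 and 2118 CPM (1.03), H2-Ab1 at 3615 and 3582 CPM (0.01), Cd74, the invariant chain gene, at 5985 and 4426 CPM (0.44), and Ciita, their master regulator, at 161 and 35.5 CPM (2.18). B cell genes stood beside them: the B cell marker list summed to 1386 CPM in PBM and 116 CPM in control members. Igkc stood at 663 and 29.7 CPM, and free RNA could supply 86.7% of that PBM level. Igkc is among the genes that gave the free RNA estimate, so that share is no separate measure. Whether its UMIs came from free RNA or from B cells in the same droplets was not tested. For H2-Aa free RNA could supply 8.47% of the PBM level. Of MHC class I genes none of 16 was 2-fold higher or lower.

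Immediate early genes, which respond within minutes to stimulation or to tissue handling, summed to 5021 CPM in PBM and 3343 CPM in control members (0.59, 0.40 to 0.77), with 6 of 19 genes 2-fold higher (14.2% of all genes) and 2 lower (6.97%, so the lower count is near that of all genes). Fos stood at 843 and 368 CPM (1.20) and Btg2 at 723 and 149 CPM (2.27), while Jun stood at 181 and 435 CPM (-1.27). The sum was 0.09 against the high Ly6c2 group and turned to -0.26 with members of at least 4 Ly6c2 UMIs, and the part of tissue handling was not tested. Monocyte transcription factor genes summed to 4740 and 3347 CPM (0.50), with Cebpb at 1325 and 938 CPM, Klf4 at 341 and 188 CPM, and Spi1, the gene of the myeloid master regulator PU.1, at 301 and 328 CPM. Klf2 stood at 422 and 124 CPM (1.77).

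**Figure D5:**
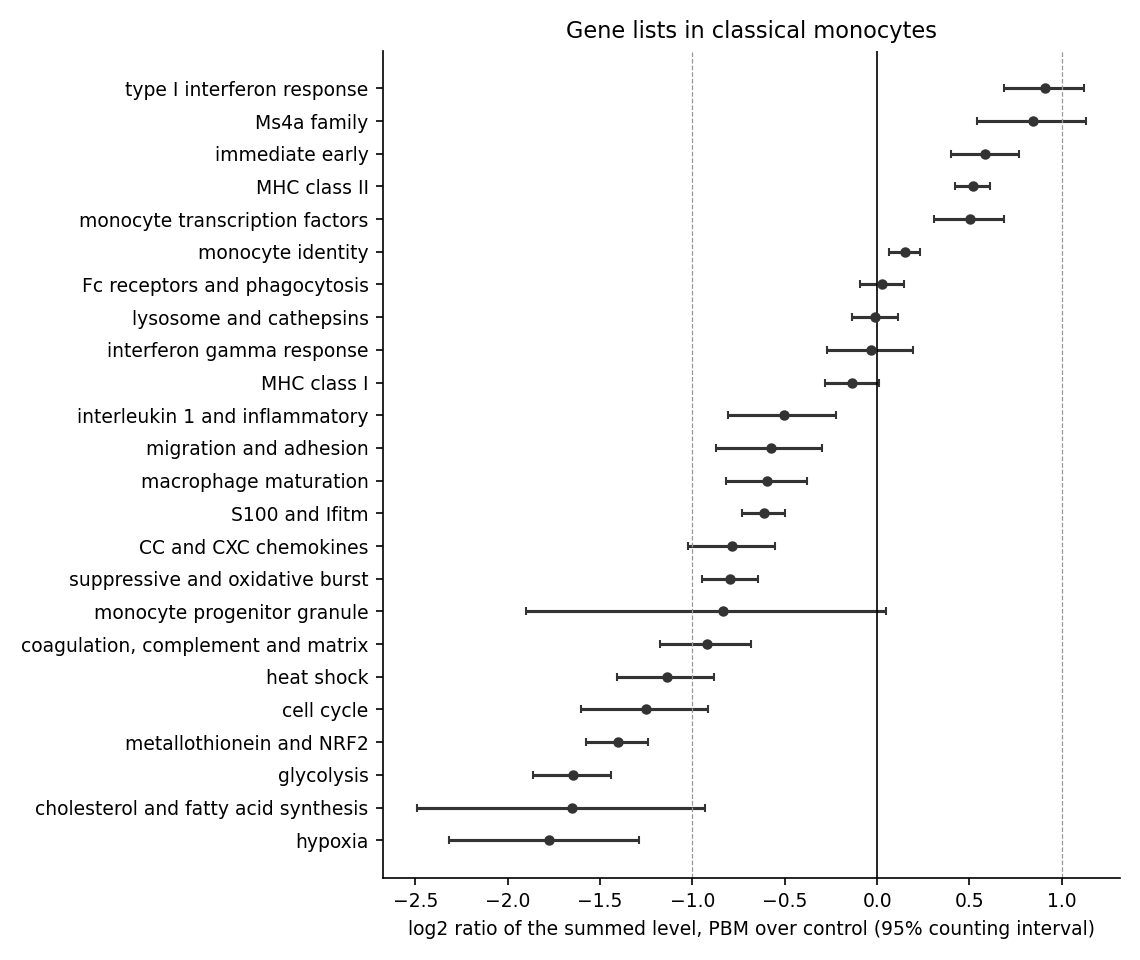
Log2 ratio, PBM over control, of the summed level of each of 24 gene lists in classical monocytes, with 95% intervals that cover counting error only; the solid line marks equal levels and the dashed lines 2-fold differences. Hypoxia, cholesterol synthesis, glycolysis and metallothionein and NRF2 genes lie lowest, from -1.78 to -1.40, and type I interferon genes highest, at 0.91, though at 0.08 against the high Ly6c2 group of the control members.

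Markers of other cell types were checked in the same way. The neutrophil list had no UMI in PBM members and 264 CPM in control members. T cell markers summed to 502 CPM in PBM and 129 CPM in control members and NK cell markers to 161 and 400 CPM. Macrophage markers summed to 2149 and 1804 CPM, and nonclassical monocyte markers to 723 and 248 CPM, a list that holds Nr4a1. The part of these cell types in the differences above was not tested.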

How the data were processed

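Both matrices hold UMI counts per gene and barcode as the authors deposited them, with no normalization. Per the labels, a 10x Genomics 3′ kit was used, and per the submitters' processing notes Cell Ranger 7.2.0 and mm10; per the file headers the matrices were written by PISA 0.12, so which program filtered the barcodes is not settled. No barcode had under 1002 UMIs. All 25200 deposited barcodes were used. Groups came from the labels. The members, gene lists and comparisons were chosen with earlier results of these data known. UMIs were summed over members per 1000000 of their UMIs (CPM), with exact Poisson intervals, exact conditional binomial intervals for log2 ratios and Clopper-Pearson intervals for shares. A gene at 0 was set to 3 counts, and the ratio is then a bound at that count. Where that bound lay on the other side of 0, no direction was given. Genes needed 20 UMIs and a place in both feature lists (22483 genes); being at least 2-fold apart was the limit for a call. Ratios named first are the 12 largest in each direction, with at least 50 CPM in either library, intervals apart and free RNA able to supply under 50% where higher, without rule, mitochondrial and ribosomal genes. Within each list, genes were named by mean level and by ratio; others were named after their values were seen. Scripts ran in Python 3.11.15 with numpy 2.4.6, scipy 1.17.1 and scanpy 1.11.5, and were tested on simulated data. Doublets were called with Scrublet but kept; members without doublet calls were an alternative, as were other limits of the rule, thinning, equal weights, centring, subtraction of free RNA and other minimum counts. Their effect is given in the closing section.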

Additional observations from a re-analysis of the deposited data

How the results depend on the processing

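The share of classical monocytes in the control library was 2.29% with at least 4 Ly6c2 UMIs, 6.23% with no limit on C1q, 3.42% without members holding B cell or NK UMIs, 3.26% without members holding 5 or more tumour-bed UMIs and 8.23% over Lyz2 barcodes, where the PBM share was 10.8%. The count of genes 2-fold higher in PBM members was 292 after thinning to 1000 UMIs, 768 with at least 50 UMIs, 792 against control members within the PBM UMI range, 378 against the high Ly6c2 group and 42 at a mean of 200 CPM or more. The count of lower genes was 314 with at least 4 Ly6c2 UMIs, 171 after thinning and 75 at 200 CPM or more. The MHC class II median was 1.01 without the PBM member with the most UMIs, the chemokine median (-1.14 as measured) -0.45 after thinning and 0.45 after subtraction of free RNA, and the macrophage maturation median (-0.21 as measured) 0.96 after that subtraction, which also turned its sum, -0.59, to 0.30; the cause was not tested. Hp reversed to -0.23 against the high Ly6c2 group and Slfn5 to -0.043 after thinning. Over 45 named genes, 481 of 590 values under alternatives stayed within the counting interval, 107 moved beyond it and 2 changed sign. For genes on a few PBM UMIs these intervals are wide, so staying within them says little. A gene below the minimum count of an alternative gave no value there, so that Zfp943 had values under 6 alternatives and Arg1 under 15. The ratio ranged from -8.66 to -4.13 for Arg1, from -3.63 to -2.48 for Ldha, from 1.91 to 3.63 for Nr4a1 and from 0.01 to 1.65 for Plac8, and the summed ratio from -2.02 to -1.10 for glycolysis and from 0.08 to 1.07 for type I interferon genes. No paired analysis was possible because each group has 1 library. The alternatives on tumour-bed UMIs, the PBM UMI range, the high Ly6c2 group, the PBM member with the most UMIs and the 200 CPM minimum were chosen after seeing the data. Depth limits the PBM levels: a gene below 74.1 CPM may have no UMI there, so its absence was not detectable at this depth.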

Other observations

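Gene groups not described above also differed between the libraries. Genes of coagulation, complement and matrix summed to 2792 CPM in PBM and 5294 CPM in control members (log2 -0.92, -1.17 to -0.68), with 8 of 21 measured genes 2-fold lower (6.97% of all genes) and 2 higher (14.2%, so a lower share than over all genes). Mmp12, the gene of a macrophage elastase, and Timp1, an inhibitor of such proteases, had no UMI in PBM members and 245 and 201 CPM in control members. Cfp, the gene of the complement activator properdin, stood at 60.2 CPM in PBM and 334 CPM in control members. Genes of cholesterol and fatty acid synthesis summed to 301 and 948 CPM (-1.65, -2.49 to -0.93) on 15 PBM UMIs, and heat shock genes to 2430 and 5353 CPM (-1.14), of which Hsp90ab1 stood at 502 and 2036 CPM. Without control members holding 5 or more tumour-bed UMIs, the heat shock ratio was -0.47 and that of the cell cycle list, -1.25 over all members, was -0.36.

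Lysosome and cathepsin genes (10564 CPM in PBM and 10648 CPM in control members, log2 -0.01) and Fc receptor and phagocytosis genes (11407 and 11190 CPM, 0.03) summed to like levels. Within them single genes differed: Psap, the gene of the lysosomal activator prosaposin, stood at 3334 and 2267 CPM, and Msr1, a scavenger receptor gene, had no UMI in PBM members and 357 CPM in control members. Clec4n, the gene of the fungal sensor dectin 2, stood at 80.3 and 609 CPM (-2.92, -4.80 to -1.57), and Fcgr1 at 141 and 300 CPM.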
